A study of Mus musculus with 18 samples.

Results

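Triglyceride synthesis enzymes are described here as 10 genes of mouse ear lipochondrocytes, the lipid-storing cells of elastic ear cartilage. They are Gpd1, Gpam, Agpat9, Agpat2, Lpin1, Lpin2, Lpin3, Mogat1, Dgat1 and Dgat2. They were taken by gene symbol from an expression table of 46983 genes, and all 10 were found; Agpat9 is the older symbol of Gpat3. RNA was sequenced from lipochondrocytes at postnatal days 8, 10, 13, 21 and 33 (P8, P10, P13, P21 and P33) and from inguinal adipocytes at P33, with 3 libraries in each of the 6 groups. Every group is labelled Wnt1-Cre2;TdTomato on a C57BL/6 background, a genotype in which Cre driven by Wnt1 turns on a red reporter in cells of neural crest origin. The P8, P10 and P13 cells were digested with collagenase and sorted for high TdTomato, while the lipochondrocytes of P21 and P33, like the adipocytes, were taken as the layer that floated on centrifugation. Age and isolation therefore change together between P13 and P21, and between P8 and P33, and cannot be told apart there. The labels do not say whether a library came from 1 animal or from a pool, so p-values measure the spread between these libraries, which may be technical.

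A triglyceride is a glycerol backbone carrying a fatty acid at each of its carbons. In the glycerol phosphate pathway Gpd1 makes glycerol 3-phosphate, Gpam or Agpat9 adds the first fatty acid, Agpat2 adds the next to give phosphatidate, a lipin removes the phosphate to give diacylglycerol, and Dgat1 or Dgat2 adds the last fatty acid. Mogat1 opens a second entry by making diacylglycerol from monoacylglycerol. In white fat this chain is known to fill the storage droplet.

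Expression is given in FPKM, a level corrected for gene length and for the number of mapped fragments, which allows levels of different genes to be set side by side. Differences are between group means of log2(FPKM + 1), a scale that understates the change of genes below a few FPKM. A gene is called higher or lower where limma, fitted over all 18 libraries, gave a Benjamini-Hochberg adjusted p below 0.05 over 13815 genes tested. All 10 members passed the filter of at least 1 FPKM in at least 3 libraries, but Agpat9 passed through the adipocyte libraries alone, so it had to differ from adipocytes. Without counts per gene no counting interval can be given, and a gene listed at 0 may still be expressed. It is not stated whether strand was used in counting. Agpat9 shares 37.4% of its exonic bases with other annotated genes, Gpd1 13.0%, Mogat1 12.8% and Agpat2 3.00%, and the other 6 members share none. The genes that overlap Gpd1, Mogat1 and Agpat2 lie on the opposite strand, so reads there can be assigned only if strand was used, while Agpat9 has overlapping genes on both strands.

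The libraries held 12461965 to 27640142 reads, of which 73.19% to 84.44% aligned. The summed level of 8 chondrocyte markers was 17425 to 27768 FPKM in lipochondrocytes and 1.31 to 2.23 FPKM in adipocytes. That of 10 adipocyte markers was 8.59 to 39.4 FPKM in lipochondrocytes and 90330 to 96095 FPKM in adipocytes, and Lep was listed at 0 in every lipochondrocyte group. Cytl1 was the most abundant chondrocyte marker at every lipochondrocyte stage, and the single markers took different courses. Col2a1 (5100 FPKM at P8 and 223 at P33), Acan, Sox9 and Col9a1 had lower means at P33 than at P8. Chad (47.0 FPKM at P8 and 2249 at P33), Cytl1, Matn3 and Mia had higher means at P33. Each cell type thus carried the markers of its label. In bulk samples fewer cells of a type and less RNA per cell cannot be told apart.

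Upstream sequence is shown for Agpat2, Lpin1, Gpam and Lpin3, because these were all called higher at P21 than at P13 and each has a window of 250 bases that ends at the gene start and overlaps no annotated exon. The sequences are RefSeq promoters of build GRCm38.p6, written 5′ to 3′ on the gene's own strand, and capitals mark matches to the motifs searched. These lie at chr2:26604418-26604667 for Agpat2, chr12:16610967-16611216 for Lpin1 and chr19:55127239-55127488 for Gpam, on the minus strand, and at chr2:160880420-160880669 for Lpin3, on the plus strand.
Agpat2: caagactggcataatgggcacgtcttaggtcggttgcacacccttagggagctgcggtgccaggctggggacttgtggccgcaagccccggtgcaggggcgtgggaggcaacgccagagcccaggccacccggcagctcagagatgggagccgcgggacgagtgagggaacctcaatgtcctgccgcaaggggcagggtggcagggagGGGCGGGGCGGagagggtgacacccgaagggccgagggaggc
Lpin1: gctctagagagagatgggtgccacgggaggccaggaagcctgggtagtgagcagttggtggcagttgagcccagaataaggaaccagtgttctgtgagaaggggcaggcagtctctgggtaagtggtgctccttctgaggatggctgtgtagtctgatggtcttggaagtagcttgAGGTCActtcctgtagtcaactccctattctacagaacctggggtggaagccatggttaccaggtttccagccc
Gpam: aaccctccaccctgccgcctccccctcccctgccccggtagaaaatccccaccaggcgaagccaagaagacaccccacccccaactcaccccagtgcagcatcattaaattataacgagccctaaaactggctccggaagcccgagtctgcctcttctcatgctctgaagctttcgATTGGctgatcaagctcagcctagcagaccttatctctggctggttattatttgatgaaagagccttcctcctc
Lpin3: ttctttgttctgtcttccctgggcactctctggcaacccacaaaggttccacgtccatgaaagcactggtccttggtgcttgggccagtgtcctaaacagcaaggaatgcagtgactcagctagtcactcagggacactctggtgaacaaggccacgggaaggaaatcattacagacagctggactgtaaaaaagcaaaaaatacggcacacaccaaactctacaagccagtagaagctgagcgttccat
The motifs were the TATA box TATAAA, the CCAAT box, the GC box GGGCGG, the E-box CACGTG and the nuclear receptor motif AGGTCA, each searched on both strands. The Agpat2 window holds GGGCGG at 2 overlapping places, whose first bases lie 42 and 37 bases before the gene start, and 32.7% of 32851 mouse promoter windows of this length hold it. The Lpin1 window holds AGGTCA 74 bases before the start, found in 14.02% of windows. The Gpam window holds CCAAT as its reverse complement, 74 bases before the start, found in 33.8% of windows. TATAAA, held by 12.4% of windows, and CACGTG, held by 6.02%, were in none of the 4 shown, and the Lpin3 window shown holds none of the 5 motifs. Gpam and Lpin3 each have a further RefSeq window, which overlaps an annotated exon and is not shown. That of Gpam holds GGGCGG 16 and AGGTCA 196 bases before its start, and that of Lpin3 holds GGGCGG 111 bases before its start. No motif was common to the 4 windows shown, and a match is a description of these letters only.

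Dgat2 was the most abundant of the 10 genes in every group. Summed over the 10 genes, expression averaged 154 ± 9.6 FPKM at P8, 117 ± 12 at P10, 514 ± 56 at P13, 4643 ± 691 at P21, 1286 ± 395 at P33 and 3935 ± 125 in adipocytes (SD, n = 3 each). Dgat2 made up 79.8% to 96.4% of this sum in the 15 lipochondrocyte libraries and 46.3% to 47.6% in adipocytes. In adipocytes Agpat2 took 27.5% ± 0.98 and Gpd1 15.6% ± 0.32 of the sum (SD, n = 3), whereas in P33 lipochondrocytes they took 4.70% ± 1.6 and 0.484% ± 0.064.

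**Figure D1:**
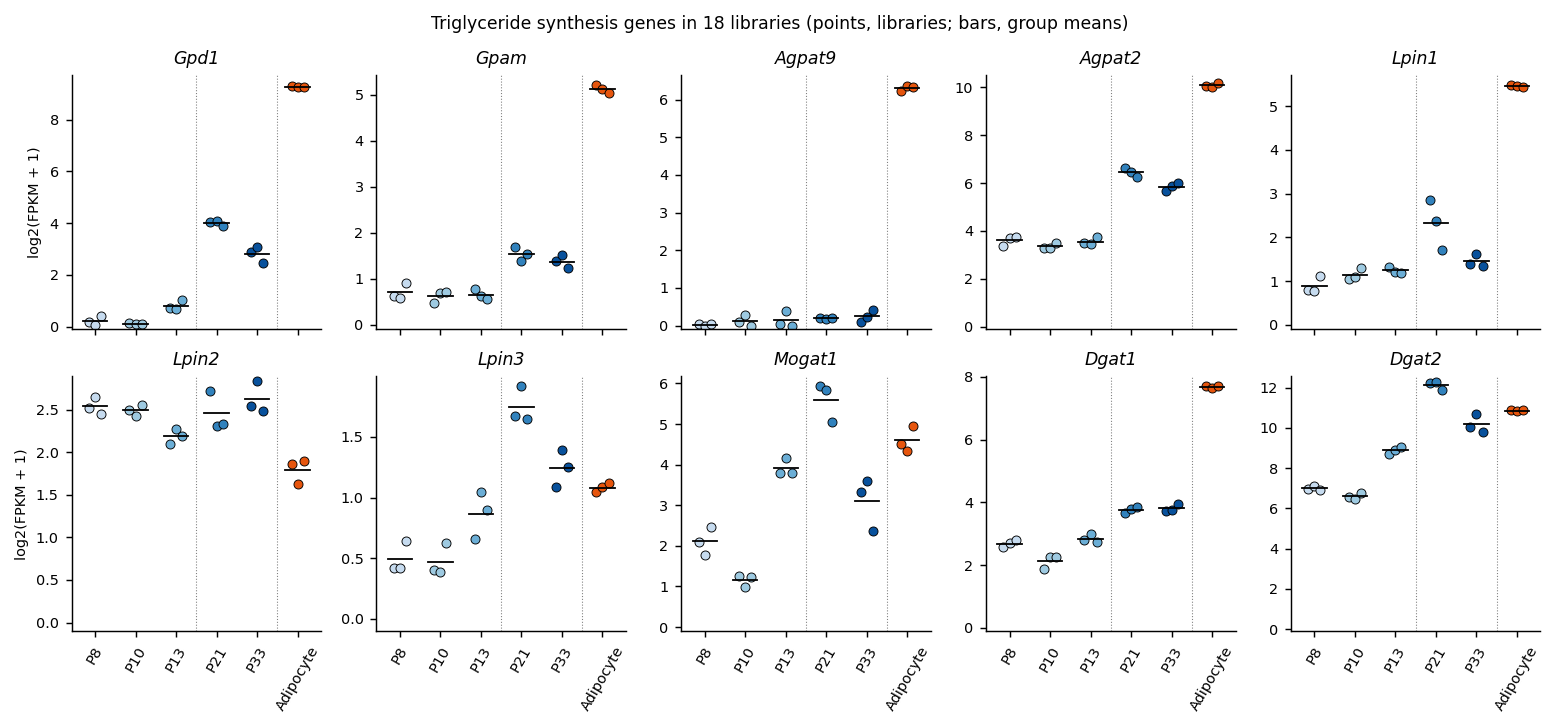
Level of each of the 10 genes in every library, as log2(FPKM + 1), with stages in order and inguinal adipocytes at the right; points are libraries, bars group means, and dotted lines separate sorted, floated and adipocyte libraries. Gpd1, Gpam, Agpat9, Agpat2, Lpin1 and Dgat1 lie far below the adipocytes at every stage, whereas Dgat2, Mogat1 and Lpin3 peak above them at P21.

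Gpd1, the dehydrogenase that supplies glycerol 3-phosphate from a glycolytic intermediate, was nearly silent in the sorted cells. It measured 0.12, 0.04 and 0.32 FPKM at P8, 0.09, 0.08 and 0.07 at P10, and 0.67, 0.59 and 1.02 at P13. At P21 it reached 15.56, 15.79 and 13.84 FPKM, at P33 it stood at 6.38, 7.54 and 4.5, and in adipocytes at 619, 605 and 619. The P21 libraries lay above every other lipochondrocyte library and far under the adipocytes, with no overlap. The P21 mean was 19.8 times the P13 mean (log2 difference 3.20, SE 0.14, adjusted p = 4.65e-10). At P33 it was 100.1 times lower than in adipocytes (log2 difference -6.45, SE 0.14, adjusted p = 5.33e-15).

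The first acylation is carried out by Gpam, the mitochondrial glycerol phosphate acyltransferase, and by Agpat9, an enzyme of the endoplasmic reticulum. Gpam stood at 0.53, 0.50 and 0.87 FPKM at P8, 0.39, 0.61 and 0.64 at P10, and 0.71, 0.53 and 0.47 at P13. It measured 2.24, 1.61 and 1.92 FPKM at P21, 1.59, 1.85 and 1.34 at P33, and 35.7, 34.0 and 31.7 in adipocytes. The floated lipochondrocytes all lay above the sorted ones, and the sorted stages overlapped one another. At P21 Gpam was higher than at P13 by 0.89 on the log2 scale (SE 0.12, adjusted p = 4.52e-05), and at P33 it stood at 4.71% of the adipocyte mean. Agpat9 ran from 0 to 0.34 FPKM over the 15 lipochondrocyte libraries, 3 of which listed it at 0, against 74.8, 80.6 and 80.0 FPKM in adipocytes. Its mean was 0.193 ± 0.14 FPKM at P33 and 78.5 ± 3.2 in adipocytes (SD, n = 3 each), a log2 difference of -6.06, given without a test because its adipocyte level alone brought it past the filter. No step between stages was called for it.

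Gpat4, the related acyltransferase of the endoplasmic reticulum that is not among the 10, held most of the expression of this step in lipochondrocytes. Of the summed FPKM of Gpam, Agpat9 and Gpat4, Gpat4 held 83.4% ± 2.6 in P33 lipochondrocytes and 20.0% ± 0.51 in adipocytes (SD, n = 3 each). Agpat9 held 1.70% ± 1.0 in P33 lipochondrocytes and 55.9% ± 1.8 in adipocytes. The level of Gpat4 itself was lower in P33 lipochondrocytes, at 9.09 FPKM against 28.0 in adipocytes (log2 difference -1.53, SE 0.11, adjusted p = 7.87e-09).

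Agpat2, the acyltransferase that makes phosphatidate and whose loss causes lipodystrophy in mice and people, was not called between the sorted stages and was far higher at P21. It measured 9.24, 11.99 and 12.60 FPKM at P8, 8.77, 8.69 and 10.26 at P10, and 10.22, 9.88 and 12.34 at P13. It measured 98.01, 86.79 and 74.05 FPKM at P21, 49.3, 58.0 and 63.2 at P33, and 1070, 1019 and 1158 in adipocytes. The 3 sorted stages overlapped, and the P21, P33 and adipocyte libraries formed separate ranges. At P21 it was 7.98 times the P13 mean (log2 difference 2.88, SE 0.14, adjusted p = 9.42e-10). At P33 it was 19.0 times lower than in adipocytes (log2 difference -4.23, SE 0.14, adjusted p = 5.25e-13).

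The lipins, phosphatidate phosphatases that can also enter the nucleus as coregulators, differed in which paralogue prevailed. Lpin1, the lipin whose loss causes the fatty liver dystrophy mouse to lack normal fat, measured 0.74, 0.72 and 1.16 FPKM at P8, 1.06, 1.15 and 1.47 at P10, and 1.51, 1.33 and 1.27 at P13. It measured 6.21, 4.22 and 2.30 FPKM at P21, 1.62, 2.07 and 1.53 at P33, and 43.9, 43.2 and 42.1 in adipocytes. The P21 libraries spread widely, with a coefficient of variation of 46.1%, yet all lay above the P13 and P33 libraries. Lpin1 was higher at P21 than at P13 by 1.08 (SE 0.20, adjusted p = 7.48e-04) and lower at P33 than in adipocytes, with a log2 difference of -4.01 (SE 0.20, adjusted p = 1.08e-10).

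Lpin2, the lipin best known from liver, was the one member higher in lipochondrocytes than in adipocytes at every stage. It measured 4.73, 5.25 and 4.47 FPKM at P8, 4.64, 4.37 and 4.85 at P10, and 3.29, 3.84 and 3.57 at P13. It measured 5.6, 3.95 and 4.05 FPKM at P21, 4.82, 6.11 and 4.61 at P33, and 2.64, 2.08 and 2.72 in adipocytes. All 15 lipochondrocyte libraries lay above the 3 adipocyte libraries, and no step between successive stages was called. The log2 difference from adipocytes was 0.83 at P33 (SE 0.13, adjusted p = 3.88e-05), 0.66 at P21 (3.23e-04), 0.40 at P13 (0.0124), 0.70 at P10 (1.57e-04) and 0.74 at P8 (9.38e-05), with the adjusted p in brackets. These 5 comparisons share the same adipocyte libraries, and of all genes 24.0% were called higher at P33, 24.5% at P21, 17.8% at P13, 16.8% at P10 and 19.3% at P8.

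Lpin3, the remaining paralogue, was low throughout, at 0.34, 0.34 and 0.56 FPKM at P8, 0.32, 0.31 and 0.54 at P10, and 0.58, 1.06 and 0.86 at P13. It measured 2.18, 2.79 and 2.13 FPKM at P21, 1.12, 1.62 and 1.38 at P33, and 1.06, 1.12 and 1.17 in adipocytes. Its P21 libraries lay above all others, and its P33 libraries overlapped the adipocytes. Of the summed lipin FPKM, Lpin1 held 21.0% ± 0.56 in P33 lipochondrocytes and 92.3% ± 0.78 in adipocytes, and Lpin2 held 62.5% ± 1.2 in P33 lipochondrocytes and 5.32% ± 0.74 in adipocytes (SD, n = 3 each). The 2 groups did not overlap, and the difference in the Lpin1 share, -71.3 percentage points, had p = 0.1 in a two-sided exact permutation test, the smallest p that 3 libraries against 3 can give. At P21 the shares lay closer together, at 36.7% ± 8.8 for Lpin1 and 41.3% ± 6.0 for Lpin2 (SD, n = 3). Lpin1 stood above Lpin2 in P21 replicates 1 and 2.

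Mogat1, the monoacylglycerol acyltransferase, moved both up and down between lipochondrocyte stages. It measured 3.25, 2.42 and 4.54 FPKM at P8, 1.37, 0.99 and 1.34 at P10, and 12.87, 16.79 and 12.98 at P13. It measured 59.95, 56.19 and 31.89 FPKM at P21, 8.98, 11.20 and 4.18 at P33, and 21.8, 19.2 and 29.8 in adipocytes. The P21 libraries lay above all others and the P10 libraries under all others, while P33 overlapped P8. Its level at P21 was 2.09 times the adipocyte mean (log2 difference 1.00, SE 0.30, adjusted p = 0.00826), and at P33 it was 2.91 times lower than in adipocytes (log2 difference -1.50, SE 0.30, adjusted p = 4.10e-04).

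The last step is shared by Dgat1 and Dgat2, enzymes of the same activity that are not related in sequence. Dgat1, which also esterifies fatty acids released by lipolysis, measured 4.96, 5.45 and 5.94 FPKM at P8, 2.66, 3.80 and 3.76 at P10, and 5.89, 7.01 and 5.61 at P13. It measured 11.50, 12.87 and 13.27 FPKM at P21, 12.31, 12.50 and 14.33 at P33, and 205, 200.3 and 209.8 in adipocytes. P21 and P33 overlapped and lay above the sorted stages, and all 15 lipochondrocyte libraries lay far under the adipocytes. At P33 it was 15.7 times lower than in adipocytes (log2 difference -3.88, SE 0.12, adjusted p = 1.85e-13).

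Dgat2, the enzyme tied to newly made fatty acids, measured 122, 138 and 121 FPKM at P8, 95.03, 86.28 and 108.04 at P10, and 419.6, 481 and 528 at P13. It measured 4763, 4929.9 and 3706 FPKM at P21, 1062, 1629.9 and 883 at P33, and 1882, 1796 and 1874 in adipocytes. The P21 libraries lay above every other library, and every P33 library lay below the adipocytes. By level Dgat2 ranked between 31 and 48 among all genes in the P21 libraries, between 97 and 175 at P33 and between 61 and 62 in adipocytes. At P21 it was 2.41 times the adipocyte mean (log2 difference 1.26, SE 0.19, adjusted p = 2.33e-05). At P33 its log2 difference from adipocytes was -0.68 (SE 0.19, adjusted p = 0.00435), and under median-of-ratios scaling, which sets the typical gene equal across libraries, it was -0.33 with adjusted p = 0.111.

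The ratio of Dgat2 to Dgat1 FPKM within a library does not depend on library scaling. It averaged 23.5 ± 2.7 at P8, 29.1 ± 6.5 at P10, 78.0 ± 14 at P13, 359 ± 71 at P21, 92.8 ± 35 at P33 and 9.02 ± 0.13 in adipocytes (SD, n = 3 each). Every lipochondrocyte library lay above every adipocyte library. On the log2 scale the P33 ratio exceeded the adipocyte ratio by 3.29, with p = 0.1 in a two-sided exact permutation test, again the smallest that this design allows.

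**Figure D2:**
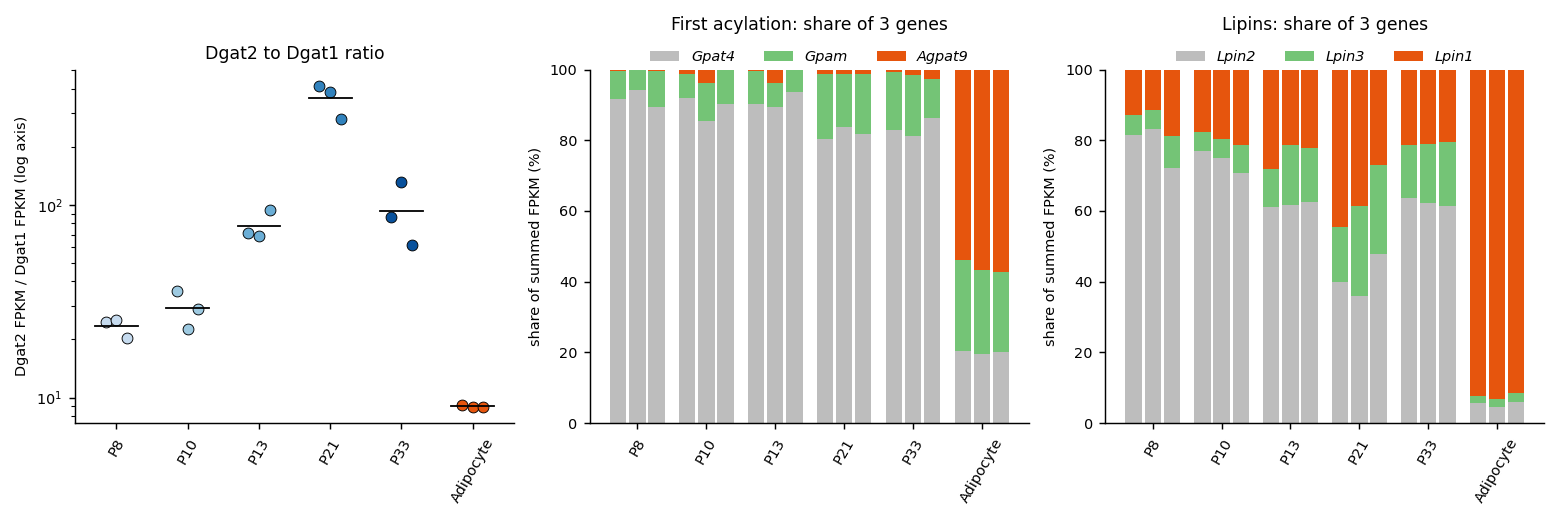
Left, Dgat2 FPKM divided by Dgat1 FPKM in each library on a log axis, with bars at group means; middle and right, share in percent of summed FPKM for Gpat4, Gpam and Agpat9 and for Lpin2, Lpin3 and Lpin1, with 1 bar per library. Lipochondrocytes are led by Dgat2, Gpat4 and, on average in every group, Lpin2, though Lpin1 lies above Lpin2 in P21 replicates 1 and 2. Adipocytes have a Dgat2 to Dgat1 ratio of 9.02, so Dgat2 leads there too, with 55.9% Agpat9 and 92.3% Lpin1.

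Across the stages, P10 with P8 compares the 2 youngest groups, both sorted. Dgat1 was lower at P10, with a log2 difference of -0.56 (SE 0.12, adjusted p = 0.00954), and 0 of the 10 members were higher. Over all genes 1.90% were called higher and 9.14% lower (262 and 1263 genes). Under median-of-ratios scaling the split over all genes was 497 higher and 125 lower, and the Dgat1 difference was -0.30 (adjusted p = 0.151). In a model of these 2 groups alone its adjusted p was 0.0928. The median difference was -0.09 over the members and -0.19 over all genes. The fibroblast and perichondrium sum was 4940 to 6482 FPKM at P10 and 2720 to 3837 at P8, the skeletal muscle sum 18.2 to 23.0 at P10 and 6.46 to 9.11 at P8, and the macrophage sum 4.58 to 5.31 at P10 and 2.20 to 2.69 at P8. Their part in the difference was not tested.

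P13 with P10 compares 2 sorted stages, and 5 of the 10 members were higher at P13, against 18.6% of all genes called higher and 4.03% lower (2567 and 557 genes). They were Mogat1 (11.5 times, log2 difference 2.76, SE 0.30, adjusted p = 2.28e-05), Dgat2 (4.94 times, 2.29, SE 0.19, 1.30e-06), Dgat1 (1.81 times, 0.71, SE 0.12, 6.41e-04), Gpd1 (0.70, SE 0.14, 0.00327) and Lpin3 (0.40, SE 0.12, 0.0308). Gpam, Agpat9, Agpat2, Lpin1 and Lpin2 were not called. The fibroblast and perichondrium sum was 1352 to 1773 FPKM at P13 and 4940 to 6482 at P10, with all 7 markers at lower means at P13, among them Col1a1 (512 at P13 and 2523 at P10), Dcn (220 at P13 and 656 at P10) and Postn (102 at P13 and 585 at P10). The skeletal muscle sum was 24.3 to 36.7 at P13 and 18.2 to 23.0 at P10, and the macrophage sum 3.23 to 3.87 at P13 and 4.58 to 5.31 at P10. Their part in the rises was not tested. The median member differed by 0.30 and the median gene by 0.15. Lpin3 lost its call without P10 replicate 1 (adjusted p = 0.109), P10 replicate 2 (0.101), P13 replicate 2 (0.137) or P13 replicate 3 (0.0851). Under median-of-ratios scaling the median gene differed by 0, all genes split into 1125 higher and 1183 lower, and Lpin2 was called lower at P13, with a difference of -0.55 (adjusted p = 0.0063).

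P13 with P8 spans the sorted stages. Here 3 of the 10 members were higher and 0 lower, against 2.69% of all genes called higher and 1.52% lower. Dgat2 was 3.74 times its P8 level (log2 difference 1.89, SE 0.19, adjusted p = 2.20e-05), Mogat1 4.18 times (1.81, SE 0.30, 0.00229), and Gpd1 differed by 0.60 (SE 0.14, 0.0273). The median difference was 0.25 over the members and -0.02 over all genes. The fibroblast and perichondrium sum was 1352 to 1773 FPKM at P13 and 2720 to 3837 at P8. In that list Dcn (220 FPKM at P13, 159 at P8) and Ly6a (7.08 and 4.04) had higher means at P13. Col1a1, Col1a2, Col14a1, Postn and Pdgfra had lower means at P13. The skeletal muscle sum was 24.3 to 36.7 at P13 and 6.46 to 9.11 at P8. The macrophage sum was 3.23 to 3.87 at P13 and 2.20 to 2.69 at P8. The part of these cells was not tested. The Gpd1 call was lost without P8 replicate 1 (adjusted p = 0.0881), P8 replicate 2 (0.1), P13 replicate 1 (0.055) or P13 replicate 3 (0.135), and Gpd1 was at or under 1.02 FPKM in all 6 libraries.

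Of the steps between successive stages, P21 with P13 had the most calls, with 8 of the 10 members higher and 0 lower, against 36.0% of all genes called higher and 7.04% lower (4977 and 972 genes). Dgat2 was 9.38 times its P13 level (log2 difference 3.22, SE 0.19, adjusted p = 7.00e-09), and beside Gpd1, Agpat2, Gpam and Lpin1 above, Mogat1 was 3.47 times (1.69, SE 0.30, 4.58e-04), Dgat1 2.03 times (0.92, SE 0.12, 2.28e-05) and Lpin3 2.84 times its P13 level (0.88, SE 0.12, 5.15e-05). For each of the 8 the groups did not overlap. The share of all genes without overlap was not worked out, so this lack of overlap is a description only. Agpat9 differed by 0.05 (adjusted p = 0.764) and Lpin2 by 0.27 (0.11). The median member differed by 1.00 and the median gene by 0.29. Under median-of-ratios scaling all genes split into 2212 higher and 2214 lower, the median gene differed by 0.01, and the same 8 members were called higher.

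Markers of other cells moved at the same step. The summed level of skeletal muscle markers was 297, 78.8 and 527 FPKM at P21 and 24.3 to 36.7 FPKM at P13. That of fibroblast and perichondrium markers was 5500 to 11169 FPKM at P21 and 1352 to 1773 at P13, with Col1a1, Col1a2, Dcn and Ly6a higher at P21, while Postn averaged 38.5 FPKM at P21 and 102 at P13 and Col14a1 5.06 at P21 and 6.64 at P13. That of macrophage markers was 16.3 to 27.0 at P21 and 3.23 to 3.87 at P13. A mean of at least 1 FPKM was reached by 7 of 9 muscle markers at P21 and 6 at P13, by 5 of 7 macrophage markers at P21 and 1 at P13, and by all 7 fibroblast and perichondrium markers at both. Their part in the rises was not tested. The P21 library with the most muscle RNA, replicate 3, had the lowest Dgat2, Mogat1, Gpd1, Agpat2, Lpin1 and Lpin3 of its group and the highest Dgat1. An order among 3 libraries does not test the difference between P13 and P21. The median of the 10 adipocyte markers stood at 0.0184% of its adipocyte level at P21, and the highest, Pparg, at 13.0%. Gpd1 stood at 2.45% of its adipocyte level, Gpam at 5.69%, Dgat1 at 6.12%, Agpat2 at 7.97% and Lpin1 at 9.86%. A part of adipocyte RNA in the rises was not tested.

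**Figure D3:**
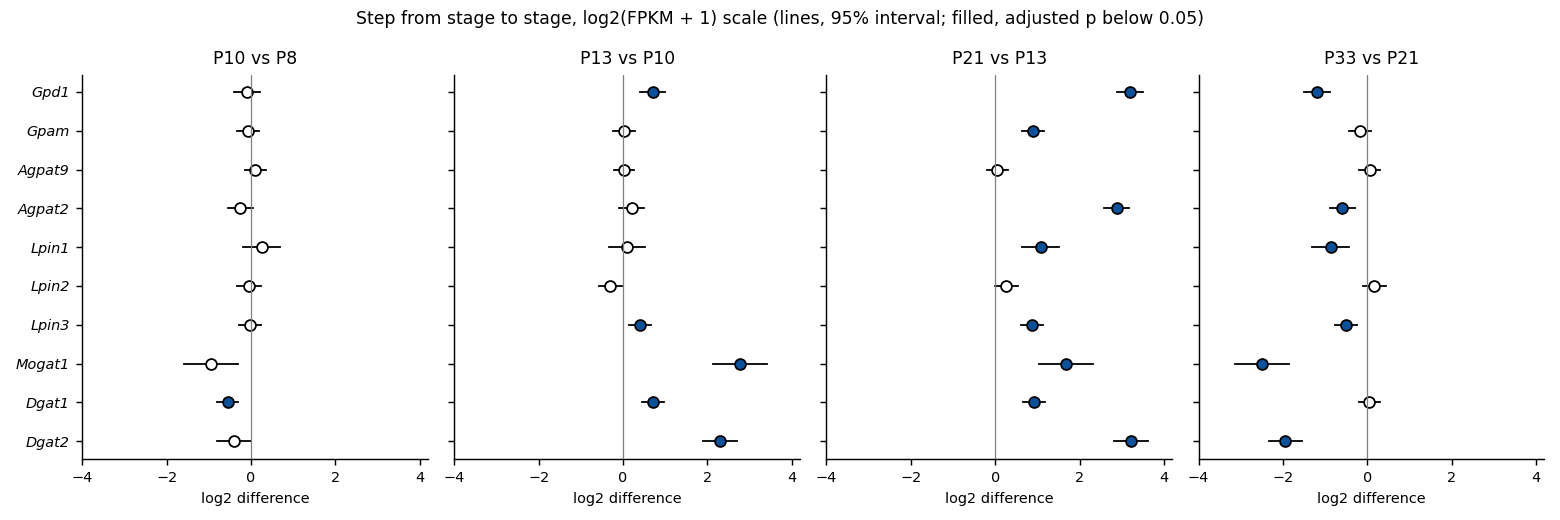
Difference of each gene between successive stages, later minus earlier, on the log2(FPKM + 1) scale; points are limma estimates, lines 95% intervals, and filled points have adjusted p below 0.05. Most members move to the right between P13 and P21, led by Dgat2 at 3.22 and Gpd1 at 3.20, and 7 lie to the left between P21 and P33, of which 6 were called.

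P33 with P21 compares the 2 floated lipochondrocyte stages. Here 6 of the 10 members were lower at P33 and 0 higher, against 2.87% of all genes called higher and 7.17% lower. Mogat1 was 6.08 times lower (log2 difference -2.50, SE 0.30, adjusted p = 8.75e-05), Dgat2 3.75 times (-1.94, SE 0.19, 1.20e-05) and Gpd1 2.45 times (-1.19, SE 0.14, 8.94e-05). Lpin1 (-0.87, SE 0.20, 0.0137), Agpat2 (-0.59, SE 0.14, 0.0134) and Lpin3 (-0.50, SE 0.12, 0.0160) were lower by less. Dgat1 differed by 0.05 (95% interval -0.20 to 0.30), Gpam by -0.17 (-0.43 to 0.09) and Lpin2 by 0.16 (-0.11 to 0.44), and none of these was called. The median difference was -0.55 over the members and -0.02 over all genes.

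The calls at this step rest on the spread shared by all 6 groups. With only P21 and P33 in the model 0 of the 6 passed, with adjusted p from 0.0599 for Dgat2 to 0.254 for Lpin1, and 126 genes were called in all against 1388. Agpat2 lost its call without P21 replicate 1 (0.0549) or P33 replicate 1 (0.0607), Lpin1 without P21 replicate 2 (0.0517) and Lpin3 without P21 replicate 2 (0.0793) or P33 replicate 1 (0.0703), whereas Dgat2, Mogat1 and Gpd1 kept theirs without any 1 library. The skeletal muscle sum was 26.9, 52.2 and 204 FPKM at P33 and 297, 78.8 and 527 at P21, the macrophage sum 31.4 to 59.1 at P33 and 16.3 to 27.0 at P21, and the fibroblast and perichondrium sum 8340 to 15391 at P33 and 5500 to 11169 at P21. In the last list Dcn averaged 4540 FPKM at P33 and 1819 at P21, whereas Col1a1 (2854 at P33 and 3171 at P21), Ly6a (127 at P33 and 267 at P21), Postn (14.7 at P33 and 38.5 at P21) and Col14a1 (3.78 at P33 and 5.06 at P21) had lower means at P33. Their part in the falls was not tested. P33 replicate 3, with the most muscle RNA of its group, had the lowest Dgat2, Mogat1, Gpd1, Gpam, Lpin1 and Lpin2 and the highest Agpat2, Agpat9 and Dgat1. An order among 3 libraries does not test the difference between P21 and P33.

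P33 with P8 spans the whole series and both ways of isolation, with 8 of the 10 members higher at P33 and 0 lower, against 35.5% of all genes called higher and 12.8% lower (4898 and 1762 genes). Dgat2 was 9.37 times its P8 level (log2 difference 3.17, SE 0.19, adjusted p = 4.45e-09). Gpd1 had a log2 difference of 2.61 (SE 0.14, adjusted p = 2.44e-09), on P8 levels of 0.04 to 0.32 FPKM. Agpat2 was 5.04 times its P8 level (2.24, SE 0.14, 8.09e-09) and Dgat1 2.39 times (1.12, SE 0.12, 1.97e-06). Lpin3 differed by 0.75, Gpam by 0.67, Mogat1 by 0.99 and Lpin1 by 0.55. The median member differed by 0.87 and the median gene by 0.23. Marker sums of other cells differed too. The macrophage sum was 31.4 to 59.1 FPKM at P33 and 2.20 to 2.69 at P8. A mean of at least 1 FPKM was reached by 6 of 7 macrophage markers at P33 and 0 at P8. The skeletal muscle sum was 26.9 to 204 at P33 and 6.46 to 9.11 at P8. Of its 9 markers, 7 reached that mean at P33 and 2 at P8, where Myh4 and Pvalb were listed at 0. The fibroblast and perichondrium sum was 8340 to 15391 at P33 and 2720 to 3837 at P8. All 7 of its markers reached that mean at both. In this last list Postn (14.7 FPKM at P33, 275 at P8) and Col14a1 (3.78 and 16.2) had lower means at P33. Col1a1, Col1a2, Dcn, Ly6a and Pdgfra had higher means at P33. The part of these cells in the rises was not tested. Under median-of-ratios scaling all genes split into 3189 higher and 2963 lower, and Mogat1 (0.71, adjusted p = 0.0537) and Lpin1 (0.36, 0.129) were no longer called. Mogat1, whose groups overlapped, also lost its call without P8 replicate 2 (0.0621), P33 replicate 1 (0.0504) or P33 replicate 2 (0.0725), and Lpin1 without P8 replicate 1 (0.102), P8 replicate 2 (0.107), P33 replicate 1 (0.0596) or P33 replicate 2 (0.12).

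P33 lipochondrocytes with P33 adipocytes match in age and isolation, and 8 of the 10 members were lower in lipochondrocytes, among them Agpat9, whose direction the filter fixed, Lpin2 was higher and Lpin3 was not called (0.16, adjusted p = 0.259). Over all genes 24.0% were called higher and 44.5% lower (3315 and 6151 genes), or 4188 higher and 4825 lower under median-of-ratios scaling. Among the 9 members that passed the filter without the adipocyte libraries, 7 were lower and 1 higher. Their median difference was -3.75, against -0.28 over all genes. The values over all genes still include genes that passed through the adipocyte libraries alone, so the filters differ. Without scaling, the largest difference among these 9 was that of Gpd1 (-6.45), and the smallest of the 7 lower ones was that of Dgat2 (-0.68). Markers of other cells differed as well. The macrophage sum was 31.4 to 59.1 FPKM in P33 lipochondrocytes and 743 to 807 in adipocytes. A mean of at least 1 FPKM was reached by 6 of 7 macrophage markers in lipochondrocytes and 7 in adipocytes. The endothelial sum was 5.96 to 8.35 in P33 lipochondrocytes and 693 to 743 in adipocytes. Of its 6 markers, 2 reached that mean in lipochondrocytes and 6 in adipocytes. The skeletal muscle sum was 26.9 to 204 in P33 lipochondrocytes and 29.95 to 33.73 in adipocytes, with overlap. The fibroblast and perichondrium sum was 8340 to 15391 in P33 lipochondrocytes and 405 to 412 in adipocytes. In that list Ly6a (127 FPKM at P33, 149 in adipocytes) and Postn (14.7 and 21.6) had lower means at P33. Pdgfra was nearly equal (2.44 and 2.38), and Col1a1, Col1a2, Col14a1 and Dcn had higher means. The part of these cells in the differences was not tested. Under median-of-ratios scaling Dgat2 was not called, and Lpin3 became higher in lipochondrocytes (0.31, adjusted p = 0.0228).

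P21 lipochondrocytes, set against the same adipocyte libraries, are younger than them. Here 4 members were higher, Dgat2, Mogat1, Lpin2 and Lpin3, and 6 were lower, against 24.5% of all genes called higher and 43.1% lower (3379 and 5952 genes, or 4105 and 4768 under median-of-ratios scaling). Lpin3 was 2.12 times its adipocyte level (log2 difference 0.66, SE 0.12, adjusted p = 1.92e-04). Without Agpat9, 5 were lower, from -3.14 for Lpin1 to -5.26 for Gpd1. The median difference of the 9 members was -3.14, against -0.25 over all genes, which again include genes that passed through adipocytes alone. The macrophage sum was 16.3 to 27.0 FPKM at P21 and 743 to 807 in adipocytes. The endothelial sum was 3.28 to 7.59 at P21 and 693 to 743 in adipocytes. Other lists were higher at P21. The skeletal muscle sum was 78.8 to 527 at P21 and 29.95 to 33.73 in adipocytes. The fibroblast and perichondrium sum was 5500 to 11169 at P21 and 405 to 412 in adipocytes. In that list Pdgfra alone had a lower mean at P21 (2.00 FPKM, 2.38 in adipocytes). The part of these cells was not tested. The median-of-ratios values gave the same 4 members higher and 6 lower.

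**Figure D4:**
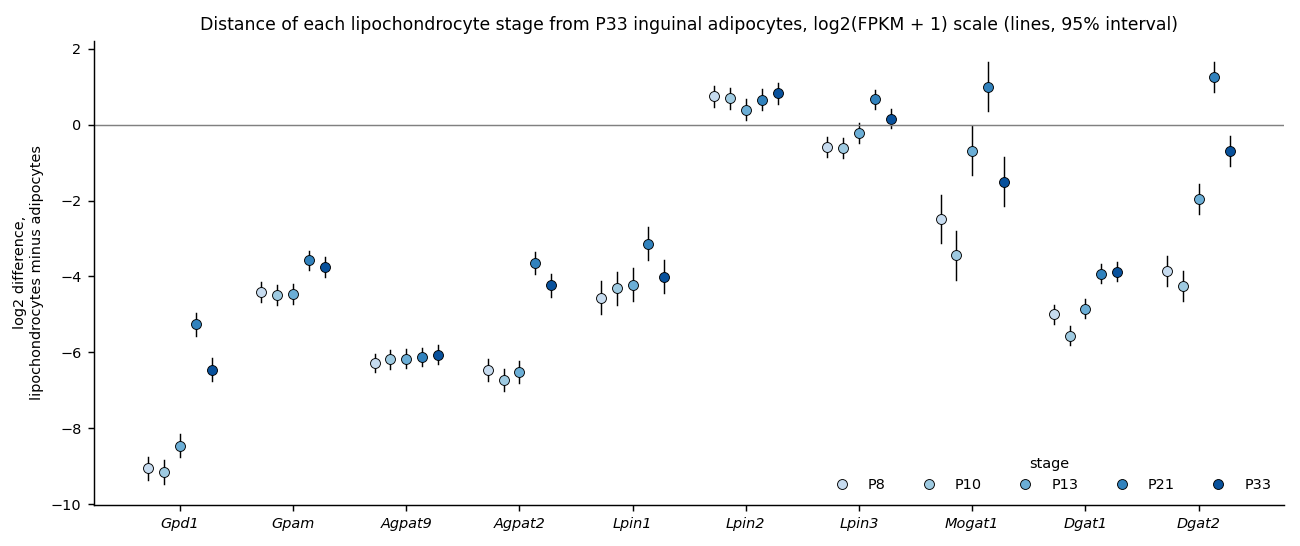
Difference of each lipochondrocyte stage from P33 inguinal adipocytes, lipochondrocytes minus adipocytes, on the log2(FPKM + 1) scale; points are limma estimates and lines 95% intervals, and all stages share the 3 adipocyte libraries. Lpin2 lies above the line at every stage, Dgat2 and Mogat1 cross it at P21 only among the 5 stages, and Gpd1 and Agpat9 stay at or below -5.26.

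Ordered by mean level, the 10 genes gave 50 pairs of neighbouring groups, of which 24 differed, including the adipocyte and P33 pair of Agpat9 that the filter fixed. The same means set the order, and no share over all genes was worked out for such pairs, so the count is a description only. For Dgat2 the order was P21, adipocytes, P33, P13, P8 and P10, and of its neighbours only P8 and P10 did not differ beyond their spread (adjusted p = 0.177). For Mogat1 it was P21, adipocytes, P13, P33, P8 and P10, with adipocytes and P13 (0.0545) and P8 and P10 (0.0549) not separated. For Gpd1 it was adipocytes, P21, P33, P13, P8 and P10, with P8 and P10 not separated (0.722). Agpat2 and Gpam followed the order adipocytes, P21, P33, P8, P13 and P10, in which the sorted stages were not separated for either and P21 and P33 were not separated for Gpam (0.45). Dgat1 ran from adipocytes to P33, P21, P13, P8 and P10, where P33 and P21 (0.861) and P13 and P8 (0.599) were not separated. For Lpin2 only P13 and adipocytes, at the low end of its order, were separated among neighbours, and for Agpat9 only adipocytes and P33. Lpin1 ran from adipocytes to P21, P33, P13, P10 and P8, with P21 separated from both of its neighbours and the later pairs not separated (adjusted p from 0.436 to 0.814). Lpin3 ran from P21 to P33, adipocytes, P13, P8 and P10, with P21 and P33 separated and the later pairs not (0.118 to 0.939).

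Over the 15 lipochondrocyte libraries, Pearson's r with Dgat2 on the log2 scale was 0.97 for Lpin3, 0.97 for Gpd1, 0.91 for Agpat2, 0.91 for Mogat1, 0.89 for Dgat1, 0.87 for Gpam, 0.84 for Lpin1, 0.38 for Agpat9 and 0.03 for Lpin2. The libraries fall into stages and share the change of isolation, so these values describe the stages and carry no p. Candidates for the genes closest to Dgat2 were the 3544 tested genes with a mean of at least 10 FPKM over these libraries. Among them the 8 closest were Mrps6 (0.994), Pfkm (0.993), Plin2 (0.992), Slc25a10 (0.991), Itm2c (0.989), Lgals3bp (0.988), Pdrg1 (0.986) and Cbr2 (0.986). Plin2, a coat protein of the lipid droplet, averaged 17.8 FPKM at P8, 62.6 at P13, 699 at P21, 269 at P33 and 613 in adipocytes. Cbr2, a carbonyl reductase, averaged 12.1 FPKM at P8, 88.4 at P13, 1364 at P21, 495 at P33 and 76.6 in adipocytes. These genes were chosen for their likeness to Dgat2, so the shared course is not a finding.

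The neighbours of the pathway were read from 7 lists of 41 genes. Of 7 other acyltransferases of the glycerol phosphate pathway, 6 were tested, and 3 were higher at P21 than at P13 and 0 lower, against 36.0% of all genes higher and 7.04% lower. They were Agpat3 (14.5 FPKM at P21 and 5.73 at P13, log2 difference 1.20, SE 0.21, adjusted p = 4.35e-04), Agpat4 (0.40, 0.0408) and Gpat4 (0.37, 0.0141), the last 2 at -0.01 and -0.03 under median-of-ratios scaling and not called there. At P33 against adipocytes, where 44.5% of all genes were lower and 24.0% higher, 5 were lower and Agpat4 was higher (8.37 FPKM in P33 lipochondrocytes and 3.32 in adipocytes, log2 difference 1.10, SE 0.15, adjusted p = 8.49e-06). Of 6 other genes of the diacylglycerol and monoacylglycerol acyltransferase families, 2 were tested. Mogat2, the intestinal monoacylglycerol acyltransferase, stood at 3.99 FPKM at P21 and 0.15 at P13 (log2 difference 2.11, SE 0.17, adjusted p = 2.13e-07). It was lower again at P33, at 1.10 FPKM (-1.27, SE 0.17, adjusted p = 1.88e-04), and in adipocytes it stood at 7.05 FPKM. Mogat1 likewise was higher at P21 than at P13 and lower at P33 than at P21. Soat1, which makes cholesterol esters, was higher in P33 lipochondrocytes, at 3.75 FPKM against 1.59 in adipocytes (log2 difference 0.87, SE 0.24, adjusted p = 0.00413).

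Of 6 genes that supply glycerol 3-phosphate, 5 were tested, and 4 were lower in P33 lipochondrocytes than in adipocytes and 0 higher, against 44.5% of all genes lower and 24.0% higher. Pck1 and Gk were among the 4, but both passed the filter through the adipocyte libraries alone, so their direction was fixed and no test is given for them. Pck1, the entry enzyme of glyceroneogenesis, stood at 0.0267 FPKM in P33 lipochondrocytes and 811 in adipocytes. The glycerol channel Aqp7 stood at 2.63 in P33 lipochondrocytes and 85.7 in adipocytes (log2 difference -4.73, SE 0.32, adjusted p = 3.80e-09). Gpd1l, a relative of Gpd1, was at 5.61 FPKM in P33 lipochondrocytes and 9.06 in adipocytes, with overlapping groups, and was not called (-0.68, adjusted p = 0.0608). Aqp7 was the only one of the 5 called at P21 against P13, where it was higher (2.80 FPKM at P21 and 0.647 at P13, log2 difference 1.19, SE 0.32, adjusted p = 0.00871), but under median-of-ratios scaling Gpd2, the mitochondrial glycerol phosphate dehydrogenase, was lower there (-0.58, adjusted p = 0.0112). Glycerol kinase, Gk, was at 0.33 FPKM in P33 lipochondrocytes and 1.91 in adipocytes.

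The lipin-activating phosphatase and other phosphatidate phosphatases made a list of 5 genes, all tested. Against adipocytes 4 were higher in P33 lipochondrocytes and 0 lower, beside 24.0% of all genes higher and 44.5% lower. The earlier stages, set against the same adipocyte libraries, gave 2 higher and 2 lower at P8, 2 and 3 at P10, 2 and 2 at P13, and 3 and 0 at P21. Of all genes 52.2% were lower at P8, 58.9% at P10 and 54.0% at P13, and under median-of-ratios scaling the list had 0 lower at P8 and P10 and 1 at P13. Ppap2a, a lipid phosphate phosphatase of the cell surface now named Plpp1, stood at 204 FPKM in P33 lipochondrocytes and 24.8 in adipocytes (log2 difference 2.93, SE 0.23, adjusted p = 1.49e-08). Ppap2b, now Plpp3, stood at 184 in P33 lipochondrocytes and 60.9 in adipocytes (1.49, SE 0.28, adjusted p = 2.42e-04). Ctdnep1 and Cnep1r1, the subunits of the phosphatase that activates lipins, were higher by 1.01 (adjusted p = 2.12e-04) and 0.45 (0.0167). At P21 against P13, Ppap2a, Ppap2b and Ppap2c were higher, by 2.03, 1.69 and 0.93, and 0 were lower (all genes 36.0% and 7.04%); under median-of-ratios scaling Ppap2c was not called (adjusted p = 0.0572). Ppap2b was higher again at P33 than at P21, by 1.08 (SE 0.28, adjusted p = 0.0245).

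Acyl-CoA synthetases, which activate fatty acids for these enzymes, also differed in paralogue. Acsl1, the main form of fat, stood at 3.52 FPKM in P33 lipochondrocytes and 613 in adipocytes (log2 difference -7.09, SE 0.14, adjusted p = 1.03e-15). Acsl6, best known from brain, averaged 1.17 FPKM at P13, 4.08 at P21, 2.78 at P33 and 0.0133 in adipocytes. Of 5 tested, 3 were higher at P13 than at P10 (Acsl3, Acsl5 and Acsl6), and 4 were higher at P21 than at P13 (these and Acsl1), against 18.6% and 36.0% of all genes. At P33 against P21, 3 were lower, led by Acsl3 (8.80 FPKM at P33 and 22.4 at P21, -1.27, SE 0.17, adjusted p = 2.25e-04), and 0 were higher, against 7.17% of all genes lower and 2.87% higher. Under median-of-ratios scaling Acsl3 was the one of these 3 still called, and Acsl5 was not called at P13 against P10 (adjusted p = 0.113) nor Acsl3 at P21 against P13 (0.745).

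Of 4 genes that build droplets at the endoplasmic reticulum, 3 were tested, and all 3 were higher at P21 than at P13 and lower in P33 lipochondrocytes than in adipocytes, against 36.0% of all genes higher at P21 and 44.5% lower than in adipocytes. Bscl2, which encodes seipin, stood at 55.3 FPKM in P33 lipochondrocytes and 300.1 in adipocytes (log2 difference -2.44, SE 0.15, adjusted p = 8.32e-10), and Fitm2 at 3.94 in P33 lipochondrocytes and 51.7 in adipocytes (-3.42, SE 0.10, adjusted p = 8.35e-14). Under median-of-ratios scaling 1 of the 3, Fitm2, was called higher at P21 than at P13. Of 8 genes of the phospholipid branch, which draws on the same diacylglycerol and phosphatidate, 7 were tested. At P21 against P13 Pcyt2 (85.5 FPKM at P21 and 37.1 at P13, log2 difference 1.18, SE 0.13, adjusted p = 5.30e-06) and Pemt (0.79, SE 0.16, 0.00117) were higher and 0 were lower, with Cept1 lower under median-of-ratios scaling (-0.73, adjusted p = 0.00345), while at P33 against P21 Pcyt2 (-1.16, SE 0.13, adjusted p = 4.07e-05) and Cept1 (-0.65, SE 0.17, 0.0291) were lower. Of all genes 36.0% were higher at P21 than at P13 and 7.17% lower at P33 than at P21. Against adipocytes 5 of the 7 were lower in P33 lipochondrocytes and 0 higher, beside 44.5% of all genes lower and 24.0% higher, led by Chpt1 at 23.8 FPKM in P33 lipochondrocytes and 430.7 in adipocytes (-4.14, SE 0.15, adjusted p = 1.96e-12).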

How the data were processed

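Expression values were FPKM made by the authors, deposited as a table of all 18 libraries with 2 decimals. The submitters' processing notes name STAR 2.4.2a and mm10; the quantifier, the annotation and the use of strand are not given here. Another deposited table lists, per the file headers, a read count for each library and an alignment rate in percent, used only to describe depth.

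Values were changed to log2(FPKM + 1), and 13815 genes that reached 1 FPKM in 3 or more libraries were kept. A model with 6 group means, with the spread pooled over groups, was fitted with limma 3.58.1 (R 4.3.3; moderated, with a variance trend). Tests were two-sided, with Benjamini-Hochberg adjustment over all genes tested within each comparison. Among the 15 pairs of groups fitted, 7 comparisons were planned, and P21 with adipocytes was added after seeing the data. P8, P10 and P13 with adipocytes, given for Lpin2 and for the phosphatases, were not among the planned 7 either. The procedure was tested on simulated data. The ratio and share were compared by exact permutation tests. Groups of 3 were not screened for single outlying libraries.

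The members and gene lists were chosen with earlier results of these data known. All 10 members are named. From each pathway list up to 4 called genes per comparison were eligible by size of change. The 8 genes closest to Dgat2 by Pearson's r were taken among tested genes averaging at least 10 FPKM over the lipochondrocyte libraries. Ignoring version suffixes, 98.9% of gene identifiers are in GENCODE M21 (GRCm38), which gave overlaps between genes; 59 of 60 marker genes and 41 of 41 pathway genes were found. RefSeq promoter windows were held for 7 members and not for Dgat1, Dgat2 and Gpd1. Alternatives changed the pseudocount, the filter, the scaling, the groups in the model, the variance trend and the replicate block, and left out each library in turn. Plots were made with matplotlib 3.10.9.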

Additional observations from a re-analysis of the deposited data

How the results depend on the processing

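The number of members called kept within 1.5 times its value under every alternative in P13 with P10, P13 with P8, P21 with P13, P33 with P8, P33 with adipocytes and P21 with adipocytes. The exceptions were P10 with P8, where 1 of the 10 members was called and the number was 2 with a pseudocount of 0.1, with a filter at 5 FPKM or with libraries rescaled to equal sums, and 0 with median-of-ratios scaling or only the 2 groups modelled, and P33 with P21, where 6 members became 0 with only the 2 groups modelled. A model of 2 groups estimates the spread from fewer libraries.

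Of the values for single genes, 33 changed sign under an alternative, and 0 of these were called in either setting. Median-of-ratios scaling turned Gpam to 0.057, Agpat2 to 0.052, Lpin2 to 0.236 and Lpin3 to 0.083 in P10 with P8, Gpam to -0.085, Agpat2 to -0.052, Agpat9 to -0.014 and Lpin1 to -0.068 in P13 with P10, Agpat2 to 0 in P13 with P8, and Lpin2 to -0.095 in P21 with P13 and -0.208 in P33 with P8. Rescaling to equal sums turned Dgat1 to -0.037 in P33 with P21 and Lpin2 to -0.218 in P33 with P8. The cause was not tested. Leaving out each library in turn gave, in P10 with P8, -0.092 to 0.005 for Lpin2, -0.171 to 0.001 for Gpd1, -0.133 to 0.026 for Gpam and -0.1 to 0.049 for Lpin3. It gave -0.053 to 0.068 for Gpam and -0.103 to 0.095 for Agpat9 in P13 with P10, and -0.116 to 0.049 for Gpam, -0.176 to 0.029 for Agpat2 and -0.002 to 0.192 for Agpat9 in P13 with P8. Later, Agpat9 ran from -0.023 to 0.172 in P21 with P13 and -0.031 to 0.131 in P33 with P21, Dgat1 from -0.013 to 0.09 in P33 with P21, and Lpin2 from -0.023 to 0.147 in P33 with P8.

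Over all genes, 1525 calls in P10 with P8 became 622 under median-of-ratios scaling, 985 without a filter and 351 with only the 2 groups modelled, where 581 in P13 with P8 became 347. Single libraries moved these counts as well. P10 with P8 had 505 without P10 replicate 1, 633 without P8 replicate 2, 768 without P10 replicate 2 and 914 without P8 replicate 3. P13 with P10 had 1921 of 3124 without P10 replicate 1, P13 with P8 had 339 without P13 replicate 3 and 382 without P8 replicate 1, and P33 with P21 had 894 of 1388 without P21 replicate 2. A filter at 5 FPKM, which tests fewer genes, left 6189 of 9466 in P33 with adipocytes and 6150 of 9331 in P21 with adipocytes. The replicate block changed no call of a member, with 6 members called in P33 with P21 and 8 in P21 with P13. Over all genes it gave 1809 calls in P10 with P8 and 3361 in P13 with P10, against 1525 and 3124 without it. Deviations of same-numbered libraries correlated at -0.168 to 0.209 over 21 pairs. The labels do not say whether equal numbers pair libraries, and these values cannot settle it. Without counts per gene, differences among members below 1 FPKM, such as Gpd1 in sorted cells, were at the limit of what these values can show.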

Other observations

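Within the P33 group the libraries differed more for some members than for others. The coefficient of variation was 44.2% for Mogat1, 32.7% for Dgat2 and 25.0% for Gpd1, but 8.55% for Dgat1 and 12.4% for Agpat2. P33 replicate 2 was the highest of its group for Dgat2, Mogat1, Gpd1, Gpam, Lpin1, Lpin2 and Lpin3. In adipocytes the coefficient of variation was 2.57% for Dgat2, 1.33% for Gpd1 and 23.2% for Mogat1.

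Pfkm, the muscle form of phosphofructokinase and among the genes closest to Dgat2 over the lipochondrocyte libraries, averaged 19.6 ± 1.6 FPKM at P21, 12.9 ± 1.2 at P33 and 6.94 ± 0.46 in adipocytes (SD, n = 3 each). Slc25a10, the mitochondrial dicarboxylate carrier, averaged 265 ± 33 FPKM at P21, 75.6 ± 4.1 at P33 and 307 ± 13 in adipocytes. Itm2c, a membrane protein gene, averaged 586 ± 60 FPKM at P21, 403 ± 70.5 at P33 and 35.0 ± 2.2 in adipocytes. The genes closest to Dgat2 among lipochondrocytes thus lay on both sides of the adipocyte level. Sebocyte markers, from another lipid-rich cell of ear skin, summed to 0.39 to 2.45 FPKM in the lipochondrocyte libraries and 10.3 to 11.6 FPKM in adipocytes. Krt79 (5.96 FPKM) and Elovl3 (3.73) made up most of the adipocyte sum. Krt79, Elovl3, Scd3 and Awat2 had lower means at P21 than in adipocytes. Mc5r (1.16 FPKM at P21 and 0.493 in adipocytes) and Fa2h had higher means at P21.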
